A study of Mus musculus with 28 samples.

Results

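The cytosolic ribosomal protein genes of the mouse mammary gland were followed across 11 groups of sorted cells, from normal luminal and basal cells to tumours driven by mutant PIK3CA. Members were all genes with a single annotated symbol that starts with Rpl or Rps followed by a digit, plus Rpsa, Rplp0, Rplp1 and Rplp2, without pseudogenes and without the Rps6k kinases. This gave 72 of 17097 genes, measured by 135 of 45141 probe sets. The brightest probe set stood for a gene, and 34 members had more than 1. Of the members, 25 are 40S and 46 are 60S genes, counting 6 paralogues (Rps27l, Rpl22l1, Rpl7l1, Rpl36al, Rpl39l and Rpl3l). Rps19bp1 is taken in by its symbol although it encodes a protein that binds Rps19 and is no part of the ribosome. Ribosomal protein genes whose probe sets carry several symbols were not analysed here.

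The samples were 28 Affymetrix arrays of female mice given 3 injections of 5 mg tamoxifen, 1 every 3 days, from 4 to 5 weeks of age. All mice carried the reporter RosaYFP and a tamoxifen-dependent Cre, K8CREERT2 (active in luminal cells) or K5CREERT2 (active in basal cells). Normal cells, with no oncogene, were YFP+ luminal cells of K8CREERT2/RosaYFP mice and YFP+ basal cells of K5CREERT2/RosaYFP mice, each at 8 weeks and at 10 months after tamoxifen. PIK cells also carried PIK3CA-H1047R, an active mutant of the PI3-kinase catalytic subunit. They were YFP+ luminal and basal cells of K8CREERT2 mice at 8 weeks (K8-PIK) and YFP+ luminal and basal cells of K5CREERT2 mice at 10 months (K5-PIK). Each of these 8 groups had 2 arrays. Tumour cells were sorted from K5-PIK mice (3 arrays), K8-PIK mice (7 arrays) and K8CREERT2/PIK3CA-H1047R/p53flox/flox/RosaYFP mice (2 arrays), with no time given. Only cells in which Cre acted carry the oncogene, and K8-PIK basal or K5-PIK luminal cells were sorted across the lineage of their driver. Comparing them with normal cells of their gate therefore also changes the Cre driver. Normal basal and normal luminal cells come from different drivers as well, so every comparison or interaction that sets them side by side also changes the driver. The labels do not say that replicates came from separate mice, so p-values measure the spread between these samples, which may be technical.

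Ribosomal proteins and ribosomal RNA build the 40S and 60S subunits that translate mRNA in the cytosol. The mRNAs of most of these proteins begin with a terminal oligopyrimidine (TOP) tract, through which the kinase mTORC1, downstream of PI3-kinase, controls their translation more than their amount. An array measures only the amount of mRNA. Several members also act outside the ribosome, such as Rpl11, which binds the p53 inhibitor Mdm2.

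The sorted labels matched their markers. The mean of 10 basal markers was 9.83 to 10.39 on the log2 scale on the arrays labelled basal and 6.05 to 8.08 on the sorted arrays labelled luminal. Tumour arrays held both kinds, with basal means of 6.92 to 9.65 and luminal means of 7.64 to 10.04. The mean of 12 endothelial markers was 6.07 to 7.36 in the 4 normal basal arrays, against 4.91 to 5.80 in normal luminal and 5.53 and 4.57 in K5-PIK basal cells. The part of such cells in any result was not tested. In cells sorted in bulk, fewer cells of a type and less RNA per cell cannot be told apart. Over genes, each by its brightest probe set, replicate arrays of a sorted group correlated at 0.973 to 0.995. Those of a tumour group correlated at 0.919 to 0.982, and no 2 arrays were identical. The number of arrays, mostly 2 per group, limits the precision. Replicate 1 of the normal basal cells at 10 months stood apart. It held the lowest of the 28 values for 29 of the 72 members (40.28%), against 15.02% of all genes tested, and the lowest median over all genes (4.94, against 5.05 to 5.24 elsewhere).

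Promoter sequence around the RefSeq start, on GRCm38.p6, is shown for the members whose levels changed in at least 1 comparison and that the table holds, since the TOP tract lies where transcription begins. It runs from 40 bases before to 20 bases after the start, on the strand of the gene. Capitals mark CTTTC or CTTCC, which overlap in Rplp2, a C followed by pyrimidines of the kind that opens a TOP mRNA. Such a match is a description of letters and not a mapped start. The windows are chr7:116334171-116334230 (minus strand) for Rps13, chr10:128626487-128626546 (minus) for Rps26, chr17:33955646-33955705 (minus) for Rps18 and chr10:80292391-80292450 (plus) for Rps15. For 60S genes they are chr7:4792925-4792984 (plus) for Rpl28, chrX:37085203-37085262 (minus) for Rpl39 and chr7:141447611-141447670 (plus) for Rplp2. For the paralogues they are chr12:69184048-69184107 (minus) for Rpl36al, chr9:66946046-66946105 (plus) for the first start of Rps27l, chr3:28805468-28805527 (plus) for Rpl22l1 and chr17:46782637-46782696 (minus) for Rpl7l1.
Rps13: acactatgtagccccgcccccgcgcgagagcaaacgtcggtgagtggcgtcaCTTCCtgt
Rps26: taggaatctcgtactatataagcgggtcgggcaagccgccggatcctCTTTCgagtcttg
Rps18: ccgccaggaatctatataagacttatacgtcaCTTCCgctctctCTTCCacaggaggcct
Rps15: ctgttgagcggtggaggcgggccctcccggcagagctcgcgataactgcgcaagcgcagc
Rpl28: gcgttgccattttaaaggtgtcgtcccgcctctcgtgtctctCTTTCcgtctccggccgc
Rpl39: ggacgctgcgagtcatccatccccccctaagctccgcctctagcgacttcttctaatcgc
Rplp2: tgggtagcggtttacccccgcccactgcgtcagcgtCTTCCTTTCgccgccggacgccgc
Rpl36al: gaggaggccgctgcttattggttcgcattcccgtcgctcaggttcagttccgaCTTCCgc
Rps27l: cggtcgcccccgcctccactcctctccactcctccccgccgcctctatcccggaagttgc
Rpl22l1: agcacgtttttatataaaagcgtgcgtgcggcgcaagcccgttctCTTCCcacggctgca
Rpl7l1: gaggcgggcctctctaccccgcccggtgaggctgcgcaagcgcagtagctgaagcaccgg

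Of the 58 members matched in the table, 30 (51.7%) held CTTTC or CTTCC in this window on the gene's strand, against 22.2% of 27025 genes. Over the full window of 250 bases before to 50 after the start, on both strands, CCGGAAG (the ETS factor core) was found in 43.1% of members and 9.93% of genes. Its reverse strand contains CTTCC, so these matches can overlap. TCGCGAGA was found in 17.2% and 1.13%, and GGGCGG (the core bound by Sp factors) in 62.1% and 38.2%. The E-box CACGTG, which Myc binds, was found in 10.3% and 8.09%, and TATAAA in 12.1% and 15.7%. The members thus shared initiator-like and ETS-like letters more often than other genes in the table, while the E-box and TATA shares were near those of other genes. Both kinds of window occur among the members that changed: Rps13, Rps26 and Rpl22l1 hold the marked letters, and Rps15, Rpl39, Rps27l and Rpl7l1 do not.

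The members were bright and varied little. On every one of the 28 arrays, 64 of the 72 lay above that array's 95th percentile over probe sets, which was 9.04 to 9.23. The other 8 were Rps27l, Rpl22l1, Rpl7l1, Rps19bp1, Rpl39l, Rpl3l and the dim probe sets of Rps15a (mean 4.57) and Rpl14 (mean 6.69). Brightness depends on the probes as well as on the RNA, so levels of different genes are not compared. For 49 members the highest and the lowest of the 11 group means lay less than 0.50 apart. Rpl4, a 60S protein, ranged over only 0.14 and Rpl8 over 0.17. At the other end, Rps27l ranged over 1.49 and Rpl7l1 over 1.37, besides the dim Rps15a (1.65) and Rpl14 (1.40). Among the 64 members bright on every array, the median Pearson r between 2 members over the 28 arrays was 0.54 (2016 pairs, from -0.36 to 0.92). That is a description, since the arrays share groups and normalization.

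Normal basal cells at 10 months had the lowest group mean of the array median over members (11.03). The median level of all members on an array was 11.37 and 11.49 in normal luminal cells at 8 weeks and 11.35 and 11.45 at 10 months. In normal basal cells it was 11.31 and 11.36 at 8 weeks, and 10.94 and 11.13 at 10 months. Both arrays of the older normal basal cells lay below every other array but K5-PIK luminal replicate 1 (11.11). Tumour arrays lay between 11.21 and 11.45, and the genotypes overlapped. The SD within groups was 0.09. Normal basal cells at 10 months had the lowest group mean for 43 of the 72 members (and the highest for 2), and K5-PIK luminal cells had the lowest for 12. The highest group mean lay in p53-deleted tumours for 22 members (and the lowest for 6) and in normal luminal cells at 8 weeks for 19. These counts were not set beside those of all genes. The median of non-member genes was also low in older normal basal cells, at -0.22 and -0.08 from its mean over all arrays. In normal luminal cells at 8 weeks it lay at 0.13 and 0.09. Both subunits were lowest in the same group: in older normal basal cells the group mean of the array median was 11.31 for 40S and 11.05 for 60S genes, each below the other 10 groups.

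**Figure D1:**
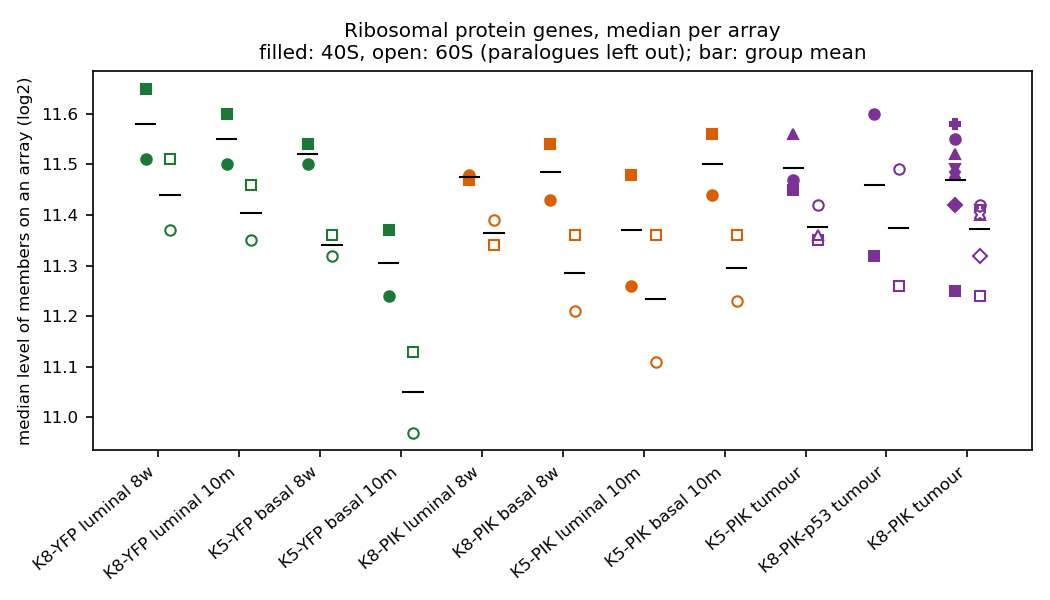
Median log2 level of 24 core 40S genes (filled) and 41 core 60S genes (open, paralogues left out) on each array, by group. Green marks normal, orange PIK and purple tumour cells, marker shape is the replicate number and the bar is the group mean. Both subunits are lowest in normal basal cells at 10 months, with 40S arrays at 11.24 and 11.37 and 60S arrays at 10.97 and 11.13.

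At 8 weeks, normal basal and luminal cells did not differ detectably in ribosomal protein mRNA. The comparison asks how the lineages differ before any oncogene, though the Cre driver differs with the lineage. Rpl39l and Rpl3l were too dim in sorted cells. Of 70 members tested, limma called 0 at an adjusted p under 0.05, against 30.3% of all 13150 genes. An unadjusted p under 0.05 was found for 1 member, beside 5479 genes. The median difference, basal minus luminal, was -0.03 beside -0.09 over all genes, and it turned to 0.15 when each array was centred on its non-member genes and to 0.08 when centred on bright ones. Rps27l, a p53-induced paralogue of the 40S protein Rps27, had the lowest value: 9.40 and 9.15 in basal cells and 9.94 and 10.05 in luminal cells. The groups did not overlap, and the difference of -0.72 (SE 0.31) did not pass the test (limma adjusted p = 0.0968).

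At 10 months, normal basal cells held less of 10 members than normal luminal cells and more of none. Those 10 of 70 members (14.3%) compare with 43.4% of all genes called in either direction and 25.8% called lower, so the share of members was below that of all genes. The 5 genes of the 40S subunit were Rps13, Rps26, Rps18, Rps15 and the paralogue Rps27l. The 5 genes of the 60S subunit were Rpl39, which lines the exit tunnel, the stalk proteins Rplp1 and Rplp2, and the paralogues Rpl22l1 and Rpl36al. Most differences were shallow: the median over members was -0.26 (40S -0.21, 60S -0.30), beside -0.12 over all genes, and 63 of 70 were negative against 57.7% of all genes. It stayed negative when arrays were centred on non-member genes (-0.11).

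Rps13, a 40S protein, stood at 9.32 and 9.81 in older normal basal cells and at 10.47 and 10.61 in luminal cells of that time. Its difference was -0.98 (SE 0.22, limma adjusted p = 0.00343), a 1.97-fold lower level. The 2 groups lay well apart, as they did for each of the 10 called members.
Rps26, a 40S protein at the mRNA exit channel, stood at 10.69 and 10.89 against 11.44 and 11.48, a difference of -0.67 (SE 0.16, limma adjusted p = 0.0053). Rps27l stood at 8.53 and 8.97 against 9.85 and 9.95. It had the largest fall of any member, by 1.15 on the log2 scale (SE 0.31, limma adjusted p = 0.00956), or 2.22-fold.
Rplp1, of the stalk that recruits translation factors, stood at 10.84 and 11.04 against 11.47 and 11.52, a difference of -0.56 (SE 0.16, limma adjusted p = 0.0128). Its partner Rplp2 differed by -0.46 and the anchor of the stalk, Rplp0, by -0.23 (SE 0.15, limma adjusted p = 0.215), which did not pass. Rpl22l1, paralogue of Rpl22, stood at 8.04 and 8.40 against 8.92 and 8.94, a difference of -0.71 (SE 0.24, limma adjusted p = 0.0276). The remaining called members fell by 0.43 (Rpl36al) to 0.66 (Rps18). Rps6, a 40S protein, stood at 12.21 and 12.28 against 12.41 and 12.34 and did not pass (-0.13, SE 0.14, limma adjusted p = 0.503).

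The count rested on single arrays. Without replicate 1 of the older normal basal cells only Rps13 was called, without either luminal array 2 or 3, and without replicate 2 of the basal cells 8. A prior whose variance follows brightness, with robust fitting, called 29 members, all lower (41.4%, beside 43.8% of all genes). Using the mean of a gene's probe sets called 16 lower and 2 higher. Fitted on probe sets whose identifiers lack the marks a, s and x, for several or similar transcripts, limma called none of the members called above. It called others instead. A member with no such set could not be called there: 58 members stand on marked sets, and only 34 members have more than 1 set. The groups did not overlap, with basal lower, for 58 of 70 members, and 46.1% of all genes did so in that direction.

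Between 8 weeks and 10 months, levels in normal basal cells differed downwards without any member passing the test, and normal luminal cells hardly differed. In basal cells the median difference was -0.25, beside -0.08 over all genes, and 66 of 70 members were negative against 57.9% of genes. It was -0.17 after centring on non-member genes. Limma called 0 members, against 1.27% of all genes. An unadjusted p under 0.05 was found for 18 lower and 1 higher, beside 2638 of all 13150 genes in either direction. The trended robust prior called 3: Rps15, Rpl36 and Rpl37a. Rps15, a protein of the 40S head, stood at 10.52 and 10.76 at 10 months and at 11.27 and 11.34 at 8 weeks (-0.66, SE 0.17, limma adjusted p = 0.0709). In luminal cells limma called 0 members, against 0.0608% of all genes, and 0 had an unadjusted p under 0.05 (1227 of 13150 genes). The median there was -0.04, turning to 0.07 after centring on non-member genes and to 0.01 on bright ones. The change in the lineage contrast between the times was itself tested. Limma called 0 members (0.0532% of all genes called), and 4 had an unadjusted p under 0.05, beside 1654 of 13150 genes. Rps13 had the largest value (-0.85, SE 0.31, limma adjusted p = 0.287).

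**Figure D2:**
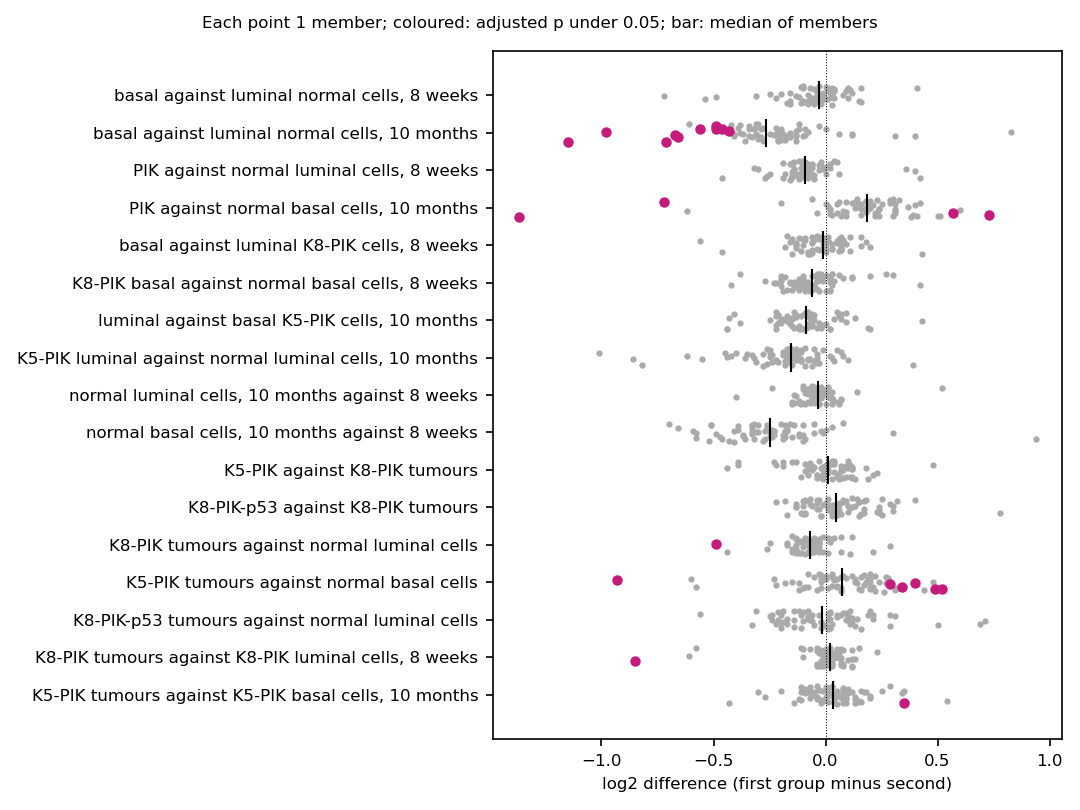
Log2 difference of each member (1 point) in 17 comparisons, with those called by limma at an adjusted p under 0.05 coloured and the median as a bar. The medians farthest from 0 are those of normal basal cells at 10 months against luminal cells (-0.26) and against 8 weeks (-0.25), of PIK against normal basal cells at 10 months (0.18) and of K5-PIK against normal luminal cells (-0.16).

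In K8-PIK luminal cells 8 weeks after tamoxifen, no single ribosomal protein gene changed detectably. The question is what mutant PI3-kinase does in the lineage where it is switched on. Limma called 0 of 70 members, against 0.350% of all genes, and 0 had an unadjusted p under 0.05 (1441 of 13150 genes). With so few genes called, the absence of calls says little about the members. The median difference from normal luminal cells was -0.09, beside -0.04 over all genes, and 61 of 70 members were negative against 55.9% of genes. The median of non-member genes was lower too, at 0.06 and 0.00 from its mean over all arrays, against 0.13 and 0.09 in normal luminal cells. Rps6 stood at 12.27 and 12.21 against 12.45 and 12.30 (-0.14, SE 0.14, limma adjusted p = 0.786). Rps19bp1 had the smallest adjusted p, with 7.27 and 7.23 against 6.87 and 6.79 (0.42, SE 0.20, limma adjusted p = 0.462).

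In K5-PIK basal cells at 10 months, 2 members were higher and 2 lower than in normal basal cells. These 4 of 70 (5.71%) compare with 16.3% of all genes (8.28% higher and 8.02% lower). Rps13 and Rps26 were higher and Rpl7l1 and Rps19bp1 were lower. Rpl7l1, a nucleolar relative of the 60S protein Rpl7, showed the largest change of any member in any comparison. It stood at 7.72 and 7.60 in K5-PIK basal cells and at 9.03 and 9.03 in normal basal cells, far apart. The difference was -1.37 (SE 0.20, limma adjusted p = 0.00273), a 2.58-fold lower level, and it passed under each alternative that was run. Rps19bp1 stood at 6.09 and 6.26 against 6.67 and 7.12 (-0.72, SE 0.20, limma adjusted p = 0.028). Leaving out any 1 of the 4 arrays ended that call (limma adjusted p 0.0507 to 0.171).

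Rps13 stood at 10.22 and 10.37 in K5-PIK basal cells, near its level in normal basal cells at 8 weeks (10.24 and 10.29) and above the 9.32 and 9.81 of normal basal cells at 10 months. Its difference was 0.73 (SE 0.22, limma adjusted p = 0.0391). The only Rps13 probe set with none of the marks a, s and x went the other way (-0.86, limma adjusted p = 0.0949). It also did so in the lineage comparison (0.58), the interaction (-0.82) and K5-PIK tumours (-0.45). Rps26 stood at 11.27 and 11.44 against 10.69 and 10.89 (0.57, SE 0.16, limma adjusted p = 0.032). This comparison shares the normal basal cells at 10 months with the lineage and age comparisons above, so the 3 are not independent. Without their replicate 1, Rps13 (0.49, limma adjusted p = 0.291) and Rps26 (0.46, limma adjusted p = 0.212) did not pass. Rps13 was also lost without either K5-PIK array (limma adjusted p 0.0686 and 0.194), and Rps26 without replicate 2 of either group (0.0575 and 0.187). The median over members was 0.18, beside 0.09 over all genes, and 0.10 after centring on non-member genes. The trended robust prior called 8 higher and 2 lower. Fitted singly, the brightest sets of members gave 2 higher and 2 lower calls and the dimmer sets 1 higher and 8 lower (16.1% of all probe sets were called).

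The crossed populations, sorted from the lineage the driver does not target, showed no called member. In K8-PIK mice at 8 weeks, basal against luminal cells gave 0 of 70 (19.5% of all genes called). There 0 members had an unadjusted p under 0.05, beside 4193 of 13150 genes. K8-PIK basal against normal basal cells gave 0 (0.418% of all genes), with 1 member, Rps15, at an unadjusted p under 0.05 (1834 of 13150 genes). In K5-PIK mice at 10 months, luminal against basal cells gave 0 (23.6% of all genes). There 1 member, Rpl13, had an unadjusted p under 0.05, beside 4545 of 13150 genes. K5-PIK luminal against normal luminal cells gave 0 (6.40% of all genes). There 6 members were lower at an unadjusted p under 0.05, beside 2944 of 13150 genes in either direction. The median over members was -0.16 beside -0.07 over all genes. The median of non-member genes was lower too, at -0.14 and -0.11 from its mean over all arrays, against 0.02 and -0.01 in normal luminal cells. The trended robust prior called 0 in these 4 comparisons too. In the last, Rpl22l1 stood at 7.78 and 8.44 against 8.92 and 8.94 (-0.82, SE 0.24, limma adjusted p = 0.0584), and Rps27l at 8.47 and 9.62 against 9.85 and 9.95 (-0.86, SE 0.31, limma adjusted p = 0.119). Both K5-PIK arrays lay below the normal ones and far from each other, with replicate 1 the lower. That array held the lowest value of all 28 for 18 members, against 5.10% of genes. Without replicate 2, 4 members were called lower in each of the 2 K5-PIK luminal comparisons.

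Whether the lineage contrast differed between PIK and normal cells was tested at each time. At 8 weeks limma called 0 members, beside 0.00760% of all genes, and 0 had an unadjusted p under 0.05 (1275 of 13150 genes). At 10 months limma called only Rps13 (1.43% of members, beside 7.15% of all genes). In normal cells Rps13 was lower in basal than in luminal cells, and in K5-PIK cells it was 10.22 and 10.37 in basal against 9.60 and 10.23 in luminal cells. The contrast moved by 1.35 (SE 0.31, limma adjusted p = 0.0272). Leaving out 1 array at a time gave between 0 and 13 called members, the highest without K5-PIK luminal replicate 2. Rps13 did not pass without either normal luminal array, normal basal replicate 1, K5-PIK luminal replicate 1 or K5-PIK basal replicate 2 (limma adjusted p 0.07 to 0.129). The median over members was 0.35, beside 0.12 over all genes, and 0.14 after centring on non-member genes.

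**Figure D3:**
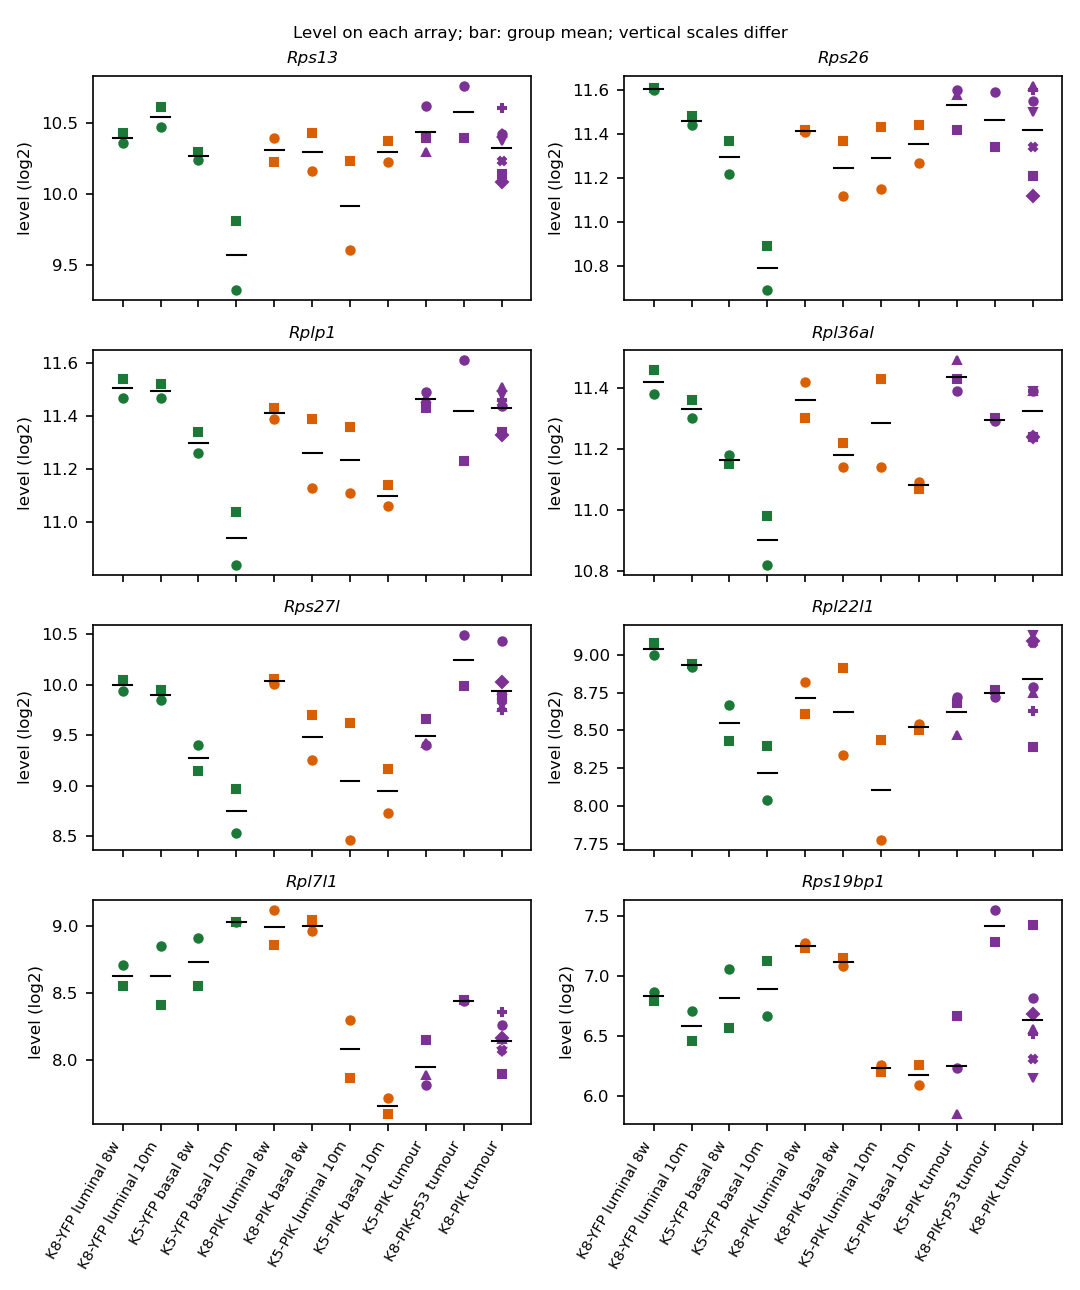
Log2 level of 8 members on each array by group (colours and shapes as for the array medians, bar at the group mean, vertical scales differ). Rps13, Rps26, Rplp1 and Rpl36al are lowest in normal basal cells at 10 months. Rpl7l1 is lowest in K5-PIK basal cells, at 7.72 and 7.60, and lower in the K5-PIK and K8-PIK tumours than in normal cells.

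No difference in ribosomal protein mRNA was detected in K5-PIK or p53-deleted tumours against K8-PIK tumours. K5-PIK against p53-deleted tumours was not tested. K5-PIK against K8-PIK tumours gave 0 called of 72 members in limma, as it gave 0 of all 13244 genes (0% called). The absence of calls thus says little about the members. An unadjusted p under 0.05 was found for 1 member, beside 1225 genes. That member was Rps27l, at 9.40, 9.66 and 9.42 in K5-PIK tumours and at 9.75 (lowest), 9.86 (median) and 10.43 (highest) in the 7 K8-PIK tumours. The groups did not overlap (-0.44, SE 0.17, limma adjusted p = 0.496). Only 1 other member, Rps2, did so, and 3.62% of all genes did. The trended robust prior called 0 members here and in the next comparison.

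Rps27l, which p53 is known to induce, was not lower in tumours with p53 deleted. It stood at 10.49 and 9.99 in p53-deleted tumours, both within or just above the K8-PIK range, and differed by 0.30 (SE 0.20, limma adjusted p = 0.406). Limma called 0 of 72 members between these tumours (0.325% of all genes), with 1 at an unadjusted p under 0.05 (2615 of 13244 genes). That was Rps19bp1, at 7.55 and 7.28 against 6.15 (lowest), 6.56 (median) and 7.42 (highest), overlapping (0.78, SE 0.30, limma adjusted p = 0.192). Rpl7l1 stood at 8.44 and 8.45, above the K8-PIK tumours at 7.90, 8.16 and 8.36 (0.30, SE 0.15, limma adjusted p = 0.287). Of 12 genes of p53 control and its targets, including Mdm2 and Cdkn1a, 0 passed either. Cdkn1a differed by -0.93 (SE 0.25, limma adjusted p = 0.113).

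Against the normal cells of their origin, taken as the mean of both times, tumours changed few members. K8-PIK tumours against normal luminal cells changed 1 of 72 members (1.39%, beside 10.6% of all genes): Rpl7l1 was lower. Normal luminal cells stood at 8.71, 8.55, 8.85 and 8.41, all above the highest tumour. The difference was -0.49 (SE 0.12, limma adjusted p = 0.0125). It did not pass without replicate 1 of either normal luminal group (limma adjusted p 0.0772 and 0.106), or with either time alone as the reference. Against K8-PIK luminal cells at 8 weeks, at 9.12 and 8.86, Rpl7l1 was again the only called member (1.39%, beside 2.50% of all genes), at -0.85 (SE 0.15, limma adjusted p = 0.0104). Without either of those 2 arrays it did not pass. p53-deleted tumours against normal luminal cells gave 0 called members in limma (24.0% of all genes). There 3 higher and 3 lower had an unadjusted p under 0.05, beside 5032 of 13663 genes. The trended robust prior called 3 lower. The median of members there was -0.02, turning to 0.02 after quantile normalization and to 0.01 after centring on bright genes.

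K5-PIK tumours differed from normal basal cells in 6 of 72 members (8.33%, beside 30.0% of all genes), 5 higher and 1 lower (15.5% and 14.5% of all genes). Rpl7l1 was lower, at 7.82, 8.15 and 7.89 against 8.91 and 8.55 at 8 weeks and 9.03 and 9.03 at 10 months, with no overlap. Its difference was -0.93 (SE 0.14, limma adjusted p = 1.28e-04). It passed under each alternative that was run.
The 5 higher members were Rps13 (0.52), Rps26 (0.49), Rpl36al (0.40), Rplp1 (0.34) and Rpl28 (0.29), the last a 60S protein. Rpl36al stood at 11.39, 11.43 and 11.49 in tumours, 11.18 and 11.15 in normal basal cells at 8 weeks and 10.82 and 10.98 at 10 months (SE 0.10, limma adjusted p = 0.00374). Tumour and normal arrays did not overlap for these members except Rps13, at 10.62, 10.39 and 10.29 against 10.24, 10.29, 9.32 and 9.81. These 5 depended on which normal cells were the reference. Against the 8-week cells alone Rpl7l1 was the only called member, beside 12.3% of all genes. Against the 10-month cells alone 23 of 72 were called, 21 of them higher, beside 32.3% of all genes. The share of all genes called thus rose as well. Only 3 of the 6 were called without replicate 1 of the 8-week or the 10-month normal cells or of the tumours. Against K5-PIK basal cells at 10 months only Rpl36al was higher (1.39%, beside 17.3% of all genes), from 11.09 and 11.07, by 0.35 (SE 0.12, limma adjusted p = 0.0391), a call lost without any 1 array of either group.

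The paralogues are set here beside their partners. Rpl7, the partner of Rpl7l1, had group means of 10.97 to 11.38 with 0 calls in 20 comparisons, while Rpl7l1 was called in 4. Rpl22 ranged over 0.42 between group means and Rpl22l1 over 0.93. Rpl36a was never called, and its relative Rpl36al was called in 3 comparisons. Rpl39l and Rpl3l lay at 3.16 to 4.47 and 3.12 to 4.20 on all arrays, near the 40th percentile of an array at 3.89 to 3.99, so little can be read from them. Whether a paralogue and its partner differ in their change was not tested.

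Different probe sets of 1 gene did not always move alike. The 135 sets are numbered here by brightness within a gene, and 129 were bright enough to be fitted on their own. Between normal basal and luminal cells at 10 months, the brightest sets gave 10 lower and 0 higher calls among members, while the dimmer sets gave 7 lower and 9 higher (38.9% of all probe sets were called in either direction). For 34 genes with several fitted sets, all sets had the same sign in 22. Rps24 shows the split most. Its set 4 stood at 8.36 and 7.80 in older normal basal cells, 6.15 and 5.60 in luminal cells and 5.45 and 4.49 in K5-PIK basal cells. It was higher by 2.20 (SE 0.49, limma adjusted p = 0.00362) in the lineage comparison and fell by 3.11 (SE 0.49, limma adjusted p = 0.00341) in K5-PIK basal cells. Sets 1 to 3 of Rps24 differed by -0.03 to -0.25 in the lineage comparison, and none passed.
Set 3 of Rps6 (1.19), sets 3 and 4 of Rpl41 (1.24 and 1.34), sets 3 and 4 of Rps20 (0.67 and 1.17), set 2 of Rpl9 (0.95), set 2 of Rpl11 (0.88) and set 2 of Rpsa (0.67) were also higher in older normal basal than luminal cells. Of normal basal cells at 10 months against 8 weeks, sets 3 and 4 of Rps20 and set 2 of Rpl9 were higher, and limma called 0 member sets lower (2.02% of all probe sets were called).
For Rps13, sets 1 and 2 fell (-0.98 and -0.96) and the dimmer set 3 stood at 7.70 and 7.24 against 6.92 and 6.86 (0.58, SE 0.33, limma adjusted p = 0.19). Set 3 is the only one whose identifier carries none of the marks a, s and x. Used in place of set 1, it turned the direction of Rps13 in all 4 comparisons that called it. The 3 sets of Rps27l fell together in the lineage comparison (-1.15, -0.97 and -1.19), and the 3 sets of Rpl7l1 in K5-PIK basal cells (-1.37, -0.87 and -2.14). Such marks sit on the sets of 58 members. For 33 the mark is a, for several transcripts of 1 gene. For 6 it is s and for 19 x, which allow transcripts of other genes. Ribosomal protein genes have many processed copies, so the values of members remain uncertain to that extent. Which transcripts the dim sets bind was not tested.

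**Figure D4:**
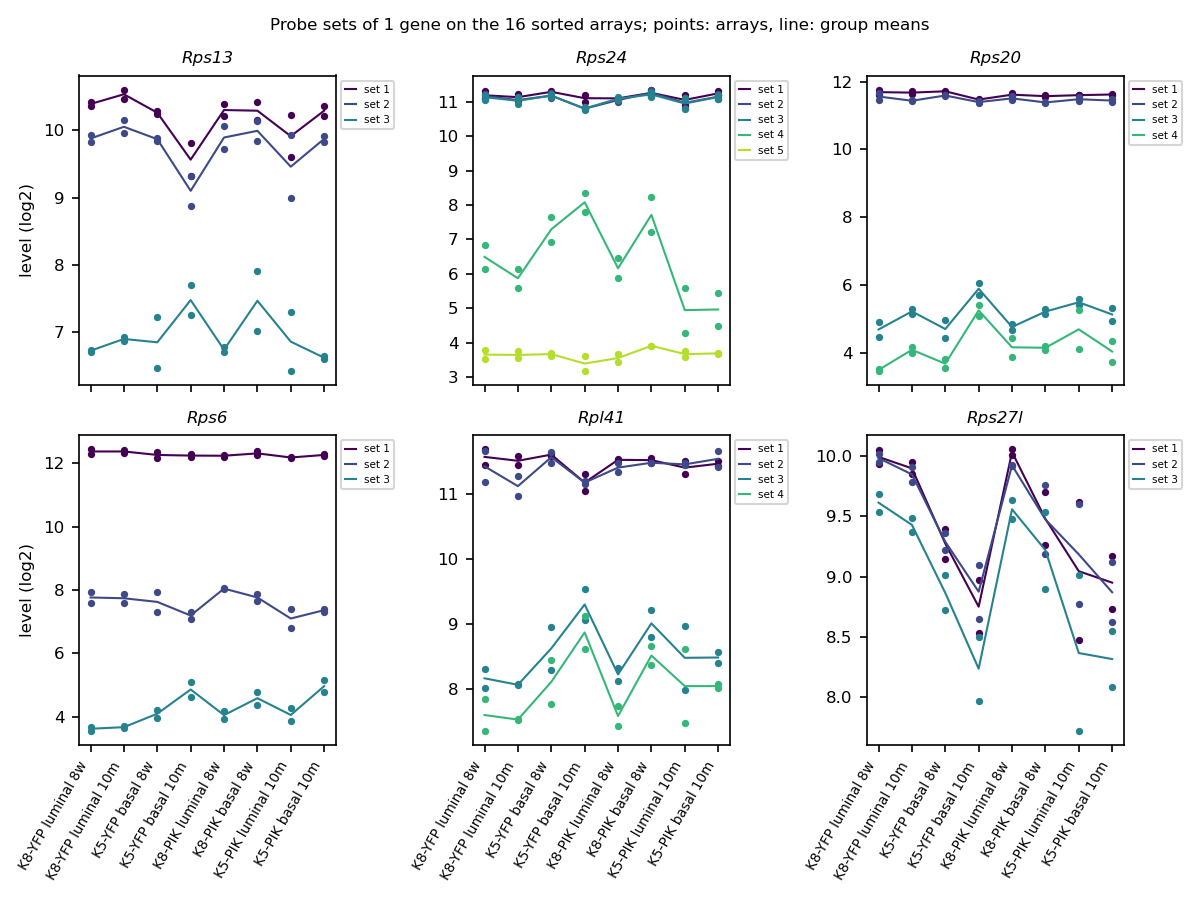
Log2 level of every probe set of 6 members on the 16 sorted arrays (points) with group means joined by lines, sets numbered from the brightest. Set 4 of Rps24 and the dim sets of Rps20 and Rpl41 have their highest group mean in normal basal cells at 10 months, where set 1 of Rps20, Rpl41 and Rps13 has its lowest, and the 3 sets of Rps27l run in parallel.

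Genes that build the ribosome were followed beside those of its proteins, and no difference between the lists was tested. The lists that follow were drawn up with earlier results of these data known. Of 40 tested ribosome biogenesis genes, 24 were higher and 1 lower in normal basal than luminal cells at 10 months (median 0.88, beside 43.4% of all genes called). At 8 weeks 15 were higher in normal cells (median 0.55, beside 30.3%) and 9 in K8-PIK cells (median 0.45, beside 19.5%), and 0 were lower. In K5-PIK basal cells 21 of 40 were lower than in normal basal cells (median -0.82, beside 16.3%). In K5-PIK tumours 33 of 40 were lower than in normal basal cells (median -1.20, beside 30.0%). Wdr12, needed to process 60S precursors, stood at 7.28 and 7.17 in older normal basal cells, 5.61 and 5.37 in luminal cells and 5.49 and 5.51 in K5-PIK basal cells. It differed by 1.74 (SE 0.22, limma adjusted p = 7.71e-05) between lineages and by -1.72 (SE 0.22, limma adjusted p = 0.00171) in K5-PIK basal cells. Dkc1, of the RNA pseudouridylation complex, differed by 1.36 and by -1.11, and Polr1b, a subunit of RNA polymerase I, by -1.98 in K5-PIK basal cells, each passing the test. Among members Rpl7l1, lower in K5-PIK basal cells too, differed by 0.40 between the lineages (SE 0.20, limma adjusted p = 0.136). Without replicate 1 of the older normal basal cells 17 of 40 were higher in the lineage comparison, 9 of 40 lower in K5-PIK basal cells and 31 of 40 lower in K5-PIK tumours.

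Mitochondrial ribosomal protein genes, which encode the ribosome of another compartment, were lower in normal basal than luminal cells for 35 of 73 at 8 weeks and 45 of 73 at 10 months (medians -0.71 and -0.77, beside 30.3% and 43.4% of all genes called), with 2 higher each time. In K5-PIK basal cells 4 were higher, such as Mrpl42 (1.32), and 9 lower, such as Mrps2 (-1.21), than in normal basal cells (median 0.20, beside 16.3%). In K5-PIK tumours 27 were higher and 5 lower than in normal basal cells (beside 30.0%). Without replicate 1 of the older normal basal cells these counts were 26 lower and 3 higher at 10 months, and 18 higher and 4 lower in tumours. Mrps21 stood at 5.55 and 5.95 in older normal basal cells and at 7.63 and 7.49 in luminal cells (-1.81, SE 0.34, limma adjusted p = 0.00128). Of 18 other translation genes with TOP mRNAs, 1 was higher and 1 lower in the lineage comparison at 10 months (beside 43.4%). In K5-PIK basal cells 0 of them passed (beside 16.3%). Eef1a1, the elongation factor, differed by 0.04 (SE 0.13, limma adjusted p = 0.85) between the lineages. Of 16 genes of mTORC1 and initiation control, 2 were higher and 3 lower in K5-PIK basal cells, beside 16.3% of all genes called in either direction. They include Eif4ebp1, which inhibits the cap-binding protein (-1.59), Larp1, which binds TOP mRNAs (-1.03), and Deptor, which inhibits mTOR (1.10). Fau, a 40S gene outside the naming rule, stood at 10.68 and 10.88 in older normal basal cells against 11.35 and 11.43 in luminal cells (-0.61, SE 0.17, limma adjusted p = 0.0115), the direction of the members. Without replicate 1 of the older normal basal cells Fau did not pass.

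**Figure D5:**
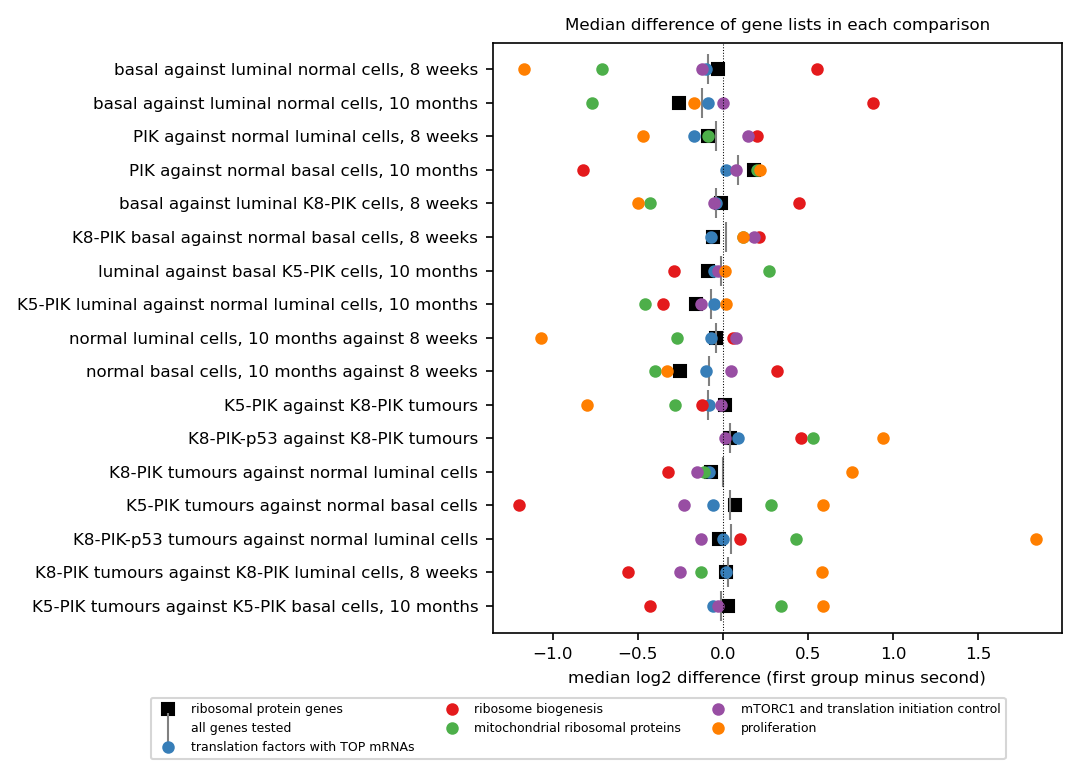
Median log2 difference of the ribosomal protein genes (squares), of all genes tested (grey ticks) and of 5 related lists (circles) in 17 comparisons. The squares stay between -0.26 and 0.18, while the ribosome biogenesis list runs from -1.20 to 0.88 and the mitochondrial ribosomal proteins from -0.77 to 0.53.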

How the data were processed

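Total RNA of sorted cells was hybridised to Affymetrix arrays, and the authors deposited log2 values for 45141 probe sets on 28 arrays. The submitters' processing notes name R 2.14.0. The background correction, the normalization and the genome build are not given in the sources used here. Array medians were 4.40 to 4.50, and the values were used unscaled. Of the probe sets, 28898 carry 1 symbol in the annotation and 551 several; 15692 have none. All 72 members matched RefSeq by gene identifier. Genes above the 40th percentile of their array on at least 2 arrays of a fit were tested by limma (version 3.58.1, R 4.3.3). Group means were fitted over 16 sorted (13150 genes), 12 tumour (13244 genes) or all 28 arrays (13663 genes). A call is an adjusted p (Benjamini-Hochberg, over all genes) below 0.05. Differences are log2. Lineage contrasts between conditions were tested as interactions. Fits were tested on simulated data.

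Members, lists and tests were chosen with earlier results of these data known. Named members are those called with groups not overlapping (up to 5 each way in a comparison), the 8 widest and 5 narrowest in group means, fixed genes (stalk, Rps6, Rpl11, Rpsa, paralogues with partners) and up to 4 called genes of a list. Probe sets, Rps2, Rpl13, Rpl36, Rpl37a and members not passing were named after their values were seen. Alternatives were the arrays fitted, the dim filter, the probe set of a gene, quantile normalization, 2 centrings, a trended robust prior, a replicate block and each array left out. Single-time references, single probe sets and the fits of all sorted comparisons and of lists without 1 array were added after seeing the data.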

Additional observations from a re-analysis of the deposited data

Results flagged for a closer look

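Among the 7 K8-PIK tumours, the members named by rule and the median of all members were tested for 1 array far from the others. These 34 items were judged by Dixon's criterion (critical share of the range 0.568), and chance marks about 1 group in 20. There were 3. Rpl10 was at 11.64 on replicate 2, below the other tumours at 11.82 to 11.94. Rpl39l, a dim probe set, was at 4.26 on replicate 2, above the others at 3.35 to 3.67. Rps27l was at 10.43 on replicate 1, above the others at 9.75 to 10.03. Replicate 2 also had the lowest member median of these tumours (11.21) and the highest mean of immune markers (6.25, against 4.55 to 5.52), and the part of such cells was not tested.

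The basal against luminal contrast of Rps13 at 10 months differed between K5-PIK and normal cells by 1.35 in the interaction test (limma adjusted p = 0.0272). Set 3 of its probe sets gave -0.82 (limma adjusted p = 0.292).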

How the results depend on the processing

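Depth cannot be stated for arrays, and 2 arrays per group limit what can be seen. Counts of called members follow, each beside the reported count. Without a dim filter p53-deleted tumours against normal luminal cells gave 3 (reported 0) and K5-PIK tumours against K5-PIK basal cells 2 (1). The mean of probe sets gave, in the lineage comparison at 10 months, 18 (10), in K5-PIK basal cells 7 (4), in the K8-PIK lineage comparison 1 (0), in the interaction at 10 months 0 (1), in K5-PIK tumours against normal basal cells 10 (6), and in the last-named pairs above 4 and 3. Probe sets without the marks a, s and x, where members with no such set dropped out, gave 1 at 8 weeks. They gave 6 in the lineage comparison at 10 months (0 shared with the 10), 7 in K5-PIK basal cells and 1 in the K8-PIK lineage comparison. They gave 1 in K5-PIK luminal cells, 2 for basal age, 3 in the interaction, 1 for p53-deleted tumours and 0 for K5-PIK tumours against K5-PIK basal cells. They reversed Rps13 to 0.58 between lineages, -0.86 in K5-PIK basal cells, -0.82 in the interaction and -0.45 in K5-PIK tumours. The cause was not tested. Quantile normalization gave 2 and 2 in the last-named pairs. Centring on non-member genes gave 4 in the lineage comparison at 10 months (10), 1 for p53-deleted tumours and 0 for K5-PIK tumours against K5-PIK basal cells, and centring on bright genes 1 and 0 in these pairs. The trended robust prior gave 29, 10 (K5-PIK basal), 3 (basal age), 7 (interaction), 11 (K5-PIK tumours against normal basal), 3 and 2. With 8-week cells alone as the reference K8-PIK tumours gave 0 (1) and K5-PIK tumours 1 (6), beside 2.22% and 12.3% of all genes. With 10-month cells alone they gave 0 and 23, beside 4.47% and 32.3%. Fitting all 28 arrays and the remaining counts under these settings stayed within 1.5 times the reported counts. Of single called members, 4 values reversed, as given, and 97 lost the call in the same direction.

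Leaving out 1 array at a time gave 1 to 8 in the lineage comparison at 10 months, 1 to 2 in K5-PIK basal cells, 0 to 4 in both K5-PIK luminal comparisons, 0 to 13 in the interaction, 0 to 1 for K8-PIK tumours against normal luminal or K8-PIK luminal cells, 3 to 7 for K5-PIK tumours against normal basal cells, 0 to 1 for p53-deleted tumours and 0 for K5-PIK tumours against K5-PIK basal cells. Without K5-YFP basal replicate 1 at 10 months, K5-PIK luminal against normal luminal cells gave 1.

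The labels give some groups the same replicate numbers without saying that they pair samples. With 3 numbers in the tumour groups the correlations of deviations were 0.09, -0.09 and 0.21 (all comparisons -0.14 to 0.39). Between K5-PIK luminal and basal cells the value was 0.36. Groups of 2 arrays return the same value for both numbers, so this check cannot tell whether samples were paired. The replicate block gave 2 in K5-PIK luminal against normal luminal cells, 2 for basal age, 6 in the interaction, 1 for p53-deleted tumours and 0 for K5-PIK tumours against K5-PIK basal cells.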

Other observations

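Proliferation genes were set beside the ribosomal protein genes, and the difference between the lists was not tested. Of 21 tested cell cycle genes, 15 were higher and 0 lower in p53-deleted tumours than in normal luminal cells (median 1.84, beside 24.0% of all genes called), where 0 of 72 members were called and the members' median was -0.02 (0.02 after quantile normalization). In normal basal against luminal cells at 8 weeks 10 of 21 were lower (median -1.17, beside 30.3%), where 0 of 70 members were called.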
